A study of Mus musculus with 9 samples.

Results

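Tendon and myotendinous genes were examined in the gastrocnemius, a calf muscle, of newborn mice. The group holds 9 genes chosen by symbol, Scx, Tnmd, Mkx, Fmod, Thbs4, Kera, Tnc, Egr2 and Ankrd1, and each of the 9 symbols matched 1 of the 55471 Ensembl gene identifiers in the count table. RNA of whole muscle was sequenced from 5 Shank3Δ11(-/-) mice (KO1 to KO5), homozygous for a knockout allele named for exon 11 of Shank3 and bred from heterozygous parents, and from 4 Shank3(+/+) mice (WT1 to WT4). All 9 mice were on the C57BL/6 background and were taken on postnatal day 0 to 1. The study left KO2 and KO4 out of its comparison for insufficient reads, so KO against WT is given for KO1, KO3 and KO5 against the 4 WT mice (7 mice) and again for all 9 mice. The columns were matched to the mice by genotype and number, and in the counts KO4, left out by the study, has the highest total and KO5, which was kept, the lowest, so the 7 mice may not be those of the study's comparison. The litter and sex of each mouse are not in the labels. The tissue is bulk RNA in which muscle fibres prevail, with a summed level of 15 skeletal muscle markers of 73610 to 82878 CPM (counts scaled to the size of the library), and in such samples fewer tendon cells and less RNA per tendon cell cannot be told apart.

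Tendon attaches muscle to bone and is made by tenocytes, fibroblasts that lay down parallel fibres of type I collagen. Scleraxis (Scx) and Mohawk (Mkx) are the transcription factors that mark and maintain this lineage, and Scx, a basic helix-loop-helix protein, binds E-box sequences and switches on tenomodulin (Tnmd). The small leucine-rich proteoglycans fibromodulin (Fmod) and keratocan (Kera) bind collagen and regulate the assembly of its fibrils, and thrombospondin 4 (Thbs4) and tenascin C (Tnc) are matrix proteins found at the myotendinous junction, where the fibre's membrane is anchored to the tendon. Egr2 (Krox20), a zinc finger transcription factor, has a part in tendon differentiation and is the main driver of myelination in Schwann cells. Ankrd1 (CARP) is an ankyrin repeat protein of the sarcomere's titin complex, known as a stretch-responsive gene and as a target of Yap and Taz.

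Of the 9 genes, 7 had a window in the RefSeq promoter table of build GRCm38.p6. The bases that precede the annotated start are shown for 4 genes whose levels moved together or in opposition over the mice: Tnmd and Fmod, which both had their highest level in KO4, and Thbs4 and Tnc, which ran opposite to Egr2. Each run holds the 200 bases before the start in GENCODE M21, on the gene's own strand, with no annotated exon in it. Capitals mark the E-box CANNTG, read on both strands.
Tnmd (chrX:133850780-133850979, plus strand): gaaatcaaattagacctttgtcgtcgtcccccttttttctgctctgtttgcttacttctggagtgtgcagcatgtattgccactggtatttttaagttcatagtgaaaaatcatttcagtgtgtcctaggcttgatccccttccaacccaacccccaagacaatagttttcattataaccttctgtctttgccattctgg
Fmod (chr1:134037054-134037253, plus strand): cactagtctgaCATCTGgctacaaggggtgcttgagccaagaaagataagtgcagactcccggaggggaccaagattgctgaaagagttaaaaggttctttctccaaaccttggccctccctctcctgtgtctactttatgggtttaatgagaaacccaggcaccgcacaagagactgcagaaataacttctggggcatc
Thbs4 (chr13:92794819-92795018, minus strand): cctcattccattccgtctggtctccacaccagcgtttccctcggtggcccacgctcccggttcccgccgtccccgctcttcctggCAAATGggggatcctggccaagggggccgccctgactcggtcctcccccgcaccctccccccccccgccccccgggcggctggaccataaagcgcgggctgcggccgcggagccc
Tnc (chr4:64047016-64047215, minus strand): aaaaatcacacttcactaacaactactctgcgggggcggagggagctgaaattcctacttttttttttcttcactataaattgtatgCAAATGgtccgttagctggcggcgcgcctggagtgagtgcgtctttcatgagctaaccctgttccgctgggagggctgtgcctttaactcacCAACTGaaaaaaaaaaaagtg
The 200 bases held 2 E-boxes before Tnc, 1 before Fmod, 1 before Thbs4 and none before Tnmd. The motif is short and common, and 72.3% of the 32817 windows of 300 bases in the table hold at least 1. The 9-letter Egr motif GCGNGGGCG, present in 5.56% of all windows, occurred once before Tnc, 171 bases upstream of the start, and not before the other 3 genes. The TEAD motif CATTCC, present in 14.7% of windows, occurred at 2 positions before Thbs4 at 2 in the window of Ankrd1 and at 1 in a window of Egr2. A match describes the sequence only, and a missing match says only that these letters are not in the window.

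Between 26444372 and 40471957 reads were counted on genes per mouse, and 3.81% to 7.88% of them lay on mitochondrial genes. KO4 had the highest value of both. Shank3 itself, counted over the whole gene, stood at 25.7 to 38.5 CPM in the 9 mice, and its log2 fold change (KO over WT) was -0.12 (SE 0.11, edgeR). A count over the whole gene does not resolve exon 11 and so does not check the genotype. Xist, the RNA of the inactive X chromosome, was at 618 CPM or more in KO3, KO5, WT3 and WT4, at 3.23 CPM in KO4 and at 0.219 CPM or less in the other mice. Markers of other tissues differed between mice, with the summed cartilage markers highest in KO4 and the summed Schwann cell and adipocyte markers highest in KO5.

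All 9 genes were detected in every mouse, with 112 to 14876 counts, and all passed the filter on low counts. Ordered by CPM per kilobase of exon in the 4 WT mice, the mean level was 118 for Tnmd, 91.5 for Thbs4, 54.8 for Fmod, 31.1 for Tnc, 25.6 for Kera, 12.0 for Scx, 8.66 for Ankrd1, 2.39 for Mkx and 1.19 for Egr2. Of the steps in this order, 2 were clear of the spread over 9 mice: the lowest Kera level (16.7) lay above the highest Scx level (15.9), and the lowest Ankrd1 level (4.11) above the highest Mkx level (3.12). For the other 6 pairs of neighbours the ranges overlapped, although within a mouse Fmod was above Tnc in all 9. The 3 transcription factors stood in the lower part of the order and the matrix genes above them.

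**Figure D1:**
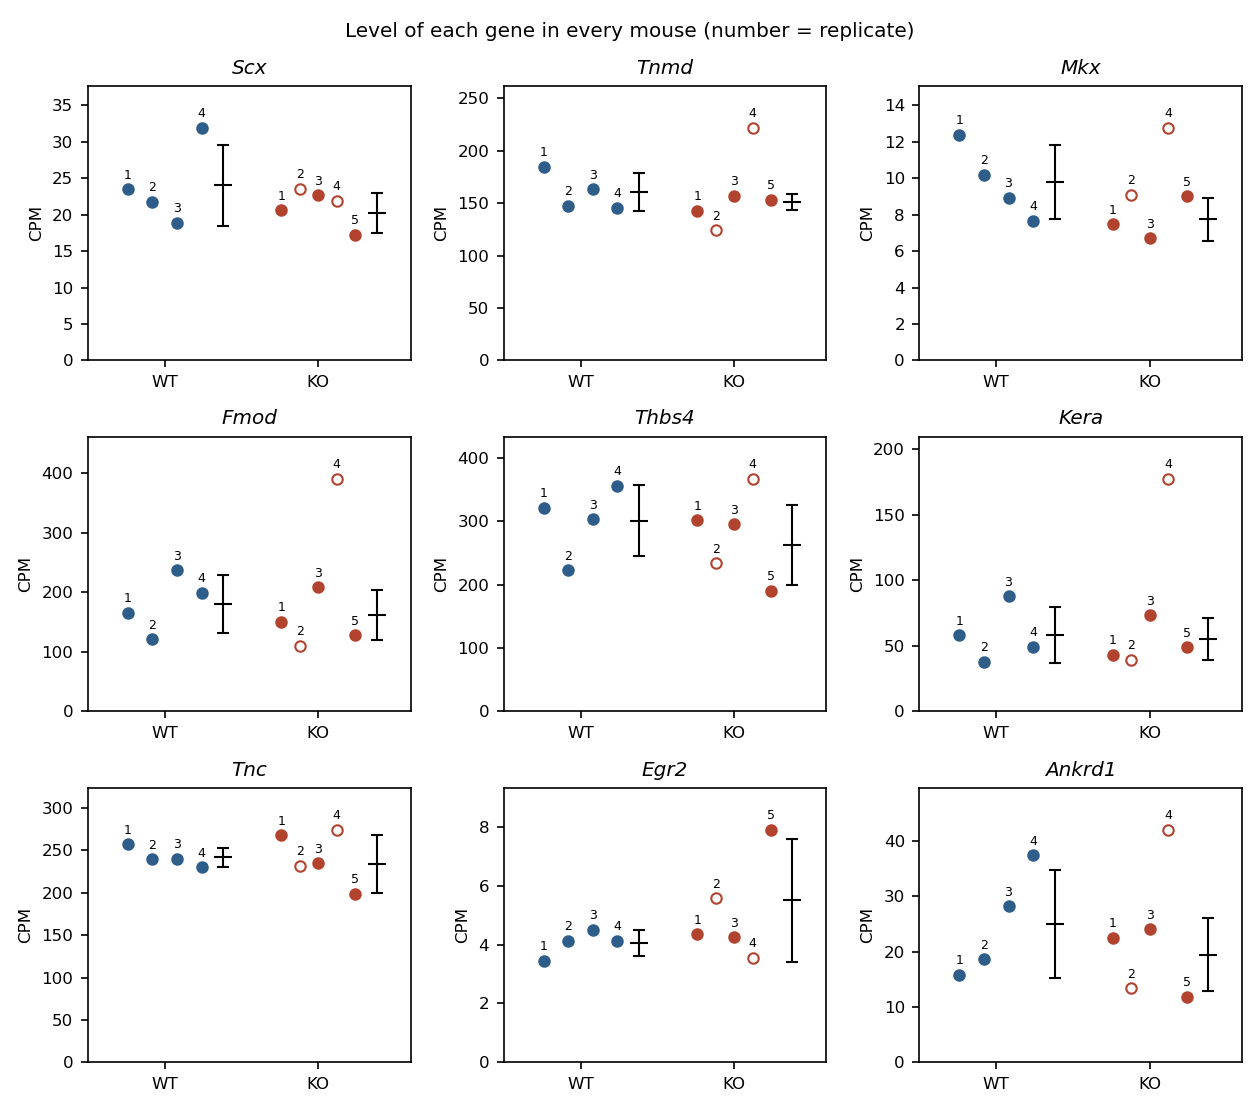
Level of each of the 9 genes in CPM (vertical axis, from 0) in the 4 WT mice (blue) and the 5 KO mice (red), with the replicate number above each point; open points are KO2 and KO4, and the bar beside each group is the mean with SD of the 4 WT mice or of KO1, KO3 and KO5. The genotypes overlap in every panel, KO4 is the highest point in 7 panels, and KO5 is the highest for Egr2 at 7.89 CPM.

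Scx (chr15:76457452-76459458, plus strand) was at 20.6 CPM in KO1, 23.6 in KO2, 22.6 in KO3, 21.9 in KO4 and 17.2 in KO5, and at 23.5, 21.8, 18.9 and 31.9 CPM in WT1 to WT4. WT4 was the highest mouse and KO5 the lowest, and the genotypes overlapped. In 7 mice the mean was 20.2 ± 2.74 CPM in KO (SD, n = 3) and 24.0 ± 5.58 CPM in WT (SD, n = 4), a log2 fold change of -0.26 (SE 0.18, edgeR p = 0.176, exact permutation p = 0.371). Without WT4 it was -0.088, and with the replicate number as a block (the replicate block) it was 0.031. Among the 7 mice only the numbers 1 and 3 occur in both genotypes, so the replicate block compares only KO1 with WT1 and KO3 with WT3. Scx, the gene that heads the tendon programme, was the 1 member besides Egr2 whose highest mouse was not KO4.

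Mkx (chr18:6934518-7004780, minus strand) was at 7.48, 9.10, 6.70, 12.8 and 9.03 CPM in KO1 to KO5 and at 12.4, 10.2, 8.94 and 7.67 CPM in WT1 to WT4. KO1 and KO3 lay below every WT mouse, while KO5 lay among them and KO4 was the highest mouse. In 7 mice the WT mean was 9.80 ± 2.01 CPM (SD, n = 4) and the KO mean 7.74 ± 1.19 CPM (SD, n = 3). The log2 fold change was -0.35 (SE 0.19, edgeR p = 0.0884, exact permutation p = 0.171), and with KO2 and KO4 it was -0.12 (SE 0.19, edgeR p = 0.549, exact permutation p = 0.563). In 7 mice it was -0.21 without WT1 and -0.58 with the replicate block.

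Egr2 (chr10:67535475-67542188, plus strand) was at 4.35, 5.57, 4.25, 3.55 and 7.89 CPM in KO1 to KO5 and at 3.45, 4.13, 4.50 and 4.13 CPM in WT1 to WT4. KO5 stood above all other mice, at 1.42 times the second highest, KO2, and the other 3 KO mice lay within the WT range. In 7 mice the mean was 5.50 ± 2.07 CPM in KO (SD, n = 3) and 4.05 ± 0.441 CPM in WT (SD, n = 4). Egr2 was the 1 member with a higher mean in KO in that comparison, with a log2 fold change of 0.43 (SE 0.24, edgeR p = 0.0982, exact permutation p = 0.143). Without KO5 it was 0.07, and in 9 mice it was 0.33 (SE 0.22). The summed Schwann cell markers were also highest in KO5, and their part in the level of Egr2 was not tested.

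Tnmd (chrX:133850980-133865577, plus strand), a membrane glycoprotein of mature tenocytes, was at 143, 124, 157, 222 and 153 CPM in KO1 to KO5 and at 185, 148, 163 and 146 CPM in WT1 to WT4. Apart from KO4, the mice lay close together, with a coefficient of variation (SD over mean) of 11.5% over the other 8. The means in 7 mice were 151 ± 7.37 CPM in KO (SD, n = 3) and 160.3 ± 18.0 CPM in WT (SD, n = 4), and the log2 fold change was -0.09 (SE 0.11, edgeR p = 0.411, exact permutation p = 0.514). Its 95% interval in that comparison ran from -0.37 to 0.19, and without WT1 the value was -0.016.

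Fmod (chr1:134037254-134048277, plus strand) was at 150.4, 111, 209, 391 and 128 CPM in KO1 to KO5 and at 166, 122, 237 and 199.5 CPM in WT1 to WT4. KO4 was 1.65 times as high as the next mouse, WT3. The log2 fold change was -0.17 (SE 0.23, exact permutation p = 0.657) in 7 mice and 0.13 (SE 0.36, exact permutation p = 1.00) in 9, and it was -0.00068 in 7 mice without WT3 and -0.28 in 9 mice without KO4. Kera (chr10:97606879-97613692, plus strand), the other proteoglycan, was at 43.2, 39.4, 73.4, 177 and 48.8 CPM in KO1 to KO5 and at 58.1, 38.0, 87.9 and 49.4 CPM in WT1 to WT4. Its level in KO4 was 2.02 times that of WT3, the next mouse. Its log2 fold change was -0.09 (SE 0.28, exact permutation p = 0.886) in 7 mice and 0.39 (SE 0.48, exact permutation p = 0.754) in 9, so that for both proteoglycans the direction turned with KO2 and KO4. In 7 mice the value for Kera was 0.18 without WT3 and -0.35 with the replicate block. A level at least 1.5 times that of the next mouse, with KO4 on top, was seen in 0.787% of the 21735 genes tested.

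Thbs4 (chr13:92751590-92794818, minus strand), a pentameric glycoprotein of the junction's matrix, was at 301, 234, 295, 367 and 190.3 CPM in KO1 to KO5 and at 321, 223, 303 and 356 CPM in WT1 to WT4. KO5 was the lowest mouse and KO4 the highest, so both ends of the range were KO mice. The log2 fold change was -0.21 (SE 0.19, exact permutation p = 0.429) in 7 mice and -0.12 (SE 0.18, exact permutation p = 0.595) in 9, but without KO5 it was -0.024 and -0.0085. Tnc (chr4:63959785-64047015, minus strand), a hexameric matrix protein of developing tendon and junction, was at 268, 232, 235, 274 and 199 CPM in KO1 to KO5 and at 257, 239.6, 239.9 and 230.1 CPM in WT1 to WT4. Tnc varied least of the 9 genes, with a coefficient of variation of 9.33% over the 9 mice, and its log2 fold change was -0.06 (SE 0.12, exact permutation p = 0.714) in 7 mice and -0.00 (SE 0.10, exact permutation p = 0.929) in 9. The 95% interval of the latter was -0.24 to 0.24, and without KO5 the value was 0.044 in 7 mice.

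Ankrd1 (chr19:36111961-36120099, minus strand), the muscle gene of the group, was at 22.5, 13.3, 24.0, 41.9 and 11.9 CPM in KO1 to KO5 and at 15.8, 18.7, 28.1 and 37.3 CPM in WT1 to WT4. The spread within each genotype was wide: in 7 mice the means were 19.5 ± 6.61 CPM in KO (SD, n = 3) and 24.996 ± 9.76 CPM in WT (SD, n = 4). The log2 fold change of -0.37 (SE 0.34, exact permutation p = 0.457) had a 95% interval from -1.23 to 0.49. It was -0.10 without WT4, -0.12 without KO5 and 0.13 with the replicate block. In 9 mice it was -0.13 (SE 0.38, exact permutation p = 0.643).

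The comparison of KO with WT therefore gave no called member. A gene was called at an edgeR p below 0.05 with a false discovery rate (FDR) below 25% over all genes tested. Of the 9 genes, 0 were called and 0 had an unadjusted edgeR p below 0.05, in 7 mice as in 9, while 2.08% of 21809 genes had such a p in 7 mice and 2.03% of 21735 in 9. By direction these were 1.16% higher and 0.917% lower in 7 mice, and 1.16% higher and 0.874% lower in 9. No gene of the whole table was called in either fit (0%), and every member had an edgeR FDR of 1.00. DESeq2 and limma-voom also put 0 of the 9 below an unadjusted p of 0.05, and DESeq2 called 6 other genes in 7 mice and 7 in 9. In 7 mice 8 of the 9 log2 fold changes lay below 0, against 52.2% of all genes, and the median was -0.17. With the replicate number as a block, which compares only KO1 with WT1 and KO3 with WT3, it was 5 of 9, with a median of -0.070. In 9 mice 6 of 9 lay below 0, against 49.5%, and the median was -0.00, so the lower side in 7 mice was not kept with all mice. Without KO5, 7 of 9 lay below 0 in the smaller comparison and the median was -0.02. Without KO3 or without WT2 it was 8 of 9, with medians of -0.30 and -0.31. In 9 mice the count was 3 of 9 without KO2, KO5 or WT1 and 8 of 9, with a median of -0.20, without KO4. The KO and WT levels of 0 members were free of overlap, against 2.83% of genes in 7 mice and 0.681% in 9. Exact 2-sided permutation tests over the mice gave p values from 0.143 to 0.886 in 7 mice, where 0.0286 is the smallest possible, and from 0.294 to 1.00 in 9 mice, where it is 0.00794. The median size of a log2 fold change over all genes was 0.10 in 7 mice, and the SE of the 9 members was 0.11 to 0.34, so a difference of that size was not detectable for these genes.

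**Figure D2:**
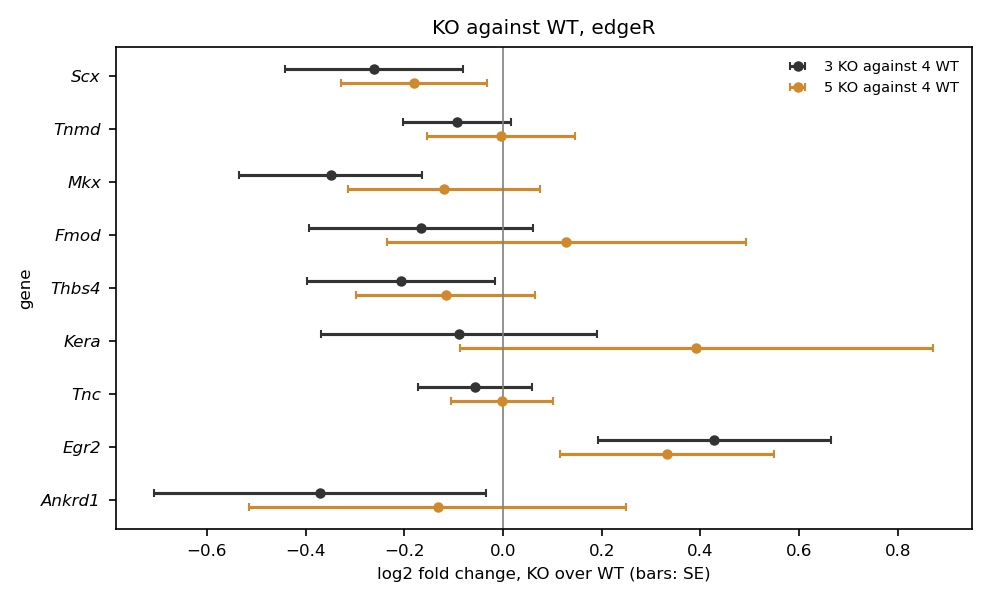
Log2 fold change of KO over WT (horizontal axis) for each of the 9 genes, with bars of 1 SE from edgeR, for KO1, KO3 and KO5 against 4 WT mice (dark) and for 5 KO against 4 WT mice (orange). All dark points except Egr2 (0.43) lie below 0, and the orange points of Fmod and Kera lie above 0, at 0.13 and 0.39.

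Split by Xist level, Ankrd1, Thbs4, Fmod and Kera were lower in KO in one set of mice and higher in the other, where the higher side depended on KO4. Among the 4 mice high in Xist (KO3, KO5, WT3 and WT4) the mean log2 CPM of Ankrd1 differed by -0.94 (KO minus WT), and among the other 5 mice (KO1, KO2, KO4, WT1 and WT2) it differed by 0.44. Thbs4 differed by -0.47 and 0.14, Fmod by -0.41 and 0.39 and Kera by -0.14 and 0.51 in the same order. Without KO4 the second set gave 0.011 for Ankrd1, -0.012 for Thbs4, -0.14 for Fmod and -0.19 for Kera, a check added after the data were seen. Scx and Mkx were lower in KO in both sets, by differences of -0.31 and -0.04 for Scx and of -0.09 and -0.23 for Mkx. Egr2 was higher in KO in both, by 0.42 and 0.22. Tnc differed by -0.12 and 0.05 and Tnmd by 0.01 and -0.07. These sets hold 2 mice against 2 and 3 against 2, and the difference between them was not tested.

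The spread between mice differed widely among the members. The coefficient of variation over 9 mice was 64.4% for Kera, 45.5% for Fmod, 44.0% for Ankrd1, 29.3% for Egr2, 22.4% for Mkx, 20.97% for Thbs4, 18.3% for Scx, 17.7% for Tnmd and 9.33% for Tnc, beside a median of 14.4% over genes of at least 1 CPM. KO4 was the highest mouse for 7 of the 9 genes (Tnmd, Mkx, Fmod, Thbs4, Kera, Tnc and Ankrd1), as it was for 15.01% of the genes tested. KO5 was the lowest for 4 (Scx, Thbs4, Tnc and Ankrd1), as it was for 13.1% of the genes tested. Without KO4 the coefficient of variation was 32.1% for Kera and 27.7% for Fmod. KO4 was the highest mouse also for 21 of 35 other tendon matrix and tenocyte genes tested and for 6 of 12 other small leucine-rich proteoglycans, but for only 3 of 20 other tendon transcription factors and signals and 2 of 24 other myotendinous junction genes. Outside tendon it was the highest for 11 of 11 cartilage, 7 of 10 endothelium, 8 of 12 leukocyte, 8 of 16 immediate early and 7 of 16 fibroblast genes, for 3 of 11 bone and 2 of 7 heart genes, for 1 of 15 skeletal muscle and 1 of 14 Schwann cell genes, and for 0 of 6 adipocyte, 0 of 7 erythrocyte and 0 of 10 epidermis genes. Type I collagen chain Col1a1 stood at 12974 CPM in KO4 and between 5107 and 10149 CPM in the other mice. Comp, a thrombospondin of cartilage and tendon chosen here after its values were seen, stood at 19.2 CPM in KO4 and at 4.89 CPM or less elsewhere.

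**Figure D3:**
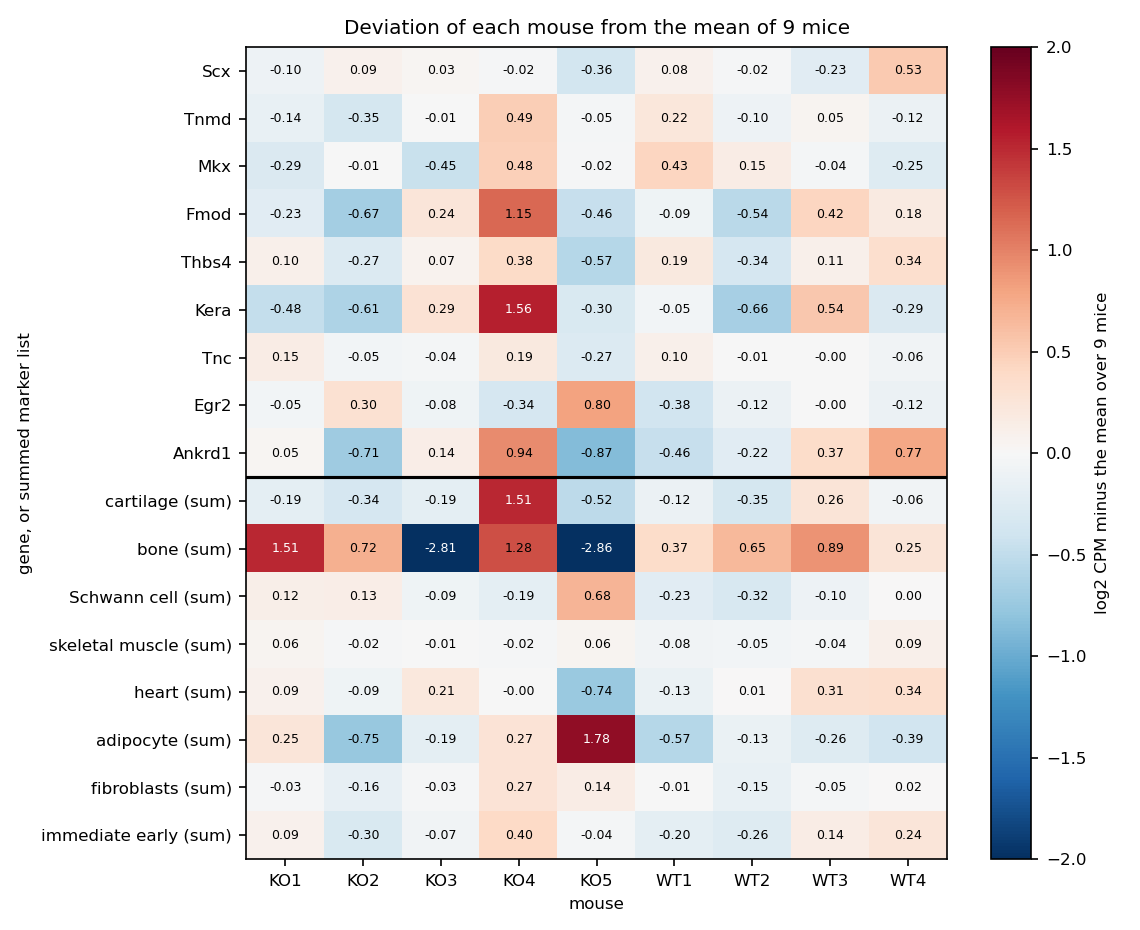
Deviation of log2 CPM from the mean over 9 mice (colour and printed value, colours saturating at 2) for the 9 genes (above the line) and for the summed CPM of 8 marker lists (below it), by mouse. KO4 is the highest mouse for Kera (1.56) and Fmod (1.15) together with the cartilage sum (1.51), and KO5 for Egr2 (0.80) together with the Schwann cell (0.68) and adipocyte sums (1.78).

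Over the 9 mice the members other than Egr2 tended to move in the same direction and Egr2 in the opposite one. The median Pearson r of log2 CPM was 0.41 over the 36 pairs of members, and the median over all pairs of tested genes was 0. Among the 28 pairs without Egr2, 24 had r above 0, and all 8 pairs with Egr2 had r below 0, from -0.84 to -0.31. An r of at least 0.8 was found for 5 of the 36 pairs, as for 1.49% of all pairs of genes. The exact permutation p over all pairings of the 9 mice passed 0.05 for 9 pairs, and 6 of these held after Benjamini-Hochberg adjustment over the 36 pairs.

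The closest pair was Fmod and Kera, the 2 proteoglycans, with r = 0.95 (exact permutation p = 0.000303, adjusted p = 0.0109) and Spearman's rho = 0.95 (exact permutation p = 0.000353, adjusted p = 0.0127). WT2, KO2 and KO5 were low in both genes, WT3, KO3 and KO4 high in both, and r was 0.87 without KO4 and 0.85 without KO2 and KO4, the 2 mice farthest from the median of Fmod. Tnmd and Kera had r = 0.86 (exact permutation p = 0.00544, adjusted p = 0.0401) and rho = 0.82 (exact permutation p = 0.0108, adjusted p = 0.129), and without KO2 and KO4 r was 0.54. Fmod and Ankrd1 had r = 0.85 (exact permutation p = 0.00293, adjusted p = 0.0401) and rho = 0.83 (exact permutation p = 0.00827, adjusted p = 0.129), with r = 0.73 without KO2 and KO4. Thbs4 and Ankrd1 had r = 0.83 (exact permutation p = 0.00596, adjusted p = 0.0401) and rho = 0.78 (exact permutation p = 0.0172, adjusted p = 0.155), with r = 0.82 without KO5 and WT2, the mice farthest from the median of Thbs4.

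Egr2 ran opposite to Tnc, with r = -0.84 (exact permutation p = 0.00592, adjusted p = 0.0401) and rho = -0.52 (exact permutation p = 0.162, adjusted p = 0.450). That r was -0.82 without KO4, -0.59 without KO5 and -0.44 without both, so it leaned on KO5. Egr2 ran opposite to Thbs4 with r = -0.81 (exact permutation p = 0.00668, adjusted p = 0.0401) and rho = -0.72 (exact permutation p = 0.0369, adjusted p = 0.190), and r was -0.85 without KO5 and WT2 but -0.62 without KO5 alone. Scx, the lineage's first transcription factor, had a median r of -0.01 with the other 8 members, and its r with Tnmd, its known target, was -0.12, and 0.036 without WT4. Mkx had r = 0.65 with Tnmd (exact permutation p = 0.0537, adjusted p = 0.176), and 0.41 without KO4. The r values of Mkx with Fmod, Thbs4 and Kera were 0.24, 0.10 and 0.39 in 9 mice and -0.35, -0.21 and -0.17 without KO4.

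The covariation leaned on KO4. Without that mouse the median r of the 36 pairs was 0.15 and no pair passed 0.05 after adjustment, and in the 7 mice the median was 0.14 with no such pair. The loss of such pairs was not particular to KO4. None passed without WT3 and 1 passed without KO2, without KO3 or without KO5, where the median r was 0.26 to 0.44. As deviations from the genotype means the median was 0.42, with 8 such pairs. With CPM scaled to total counts in place of TMM the median was 0.32, with 1 such pair, Fmod and Kera.

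**Figure D4:**
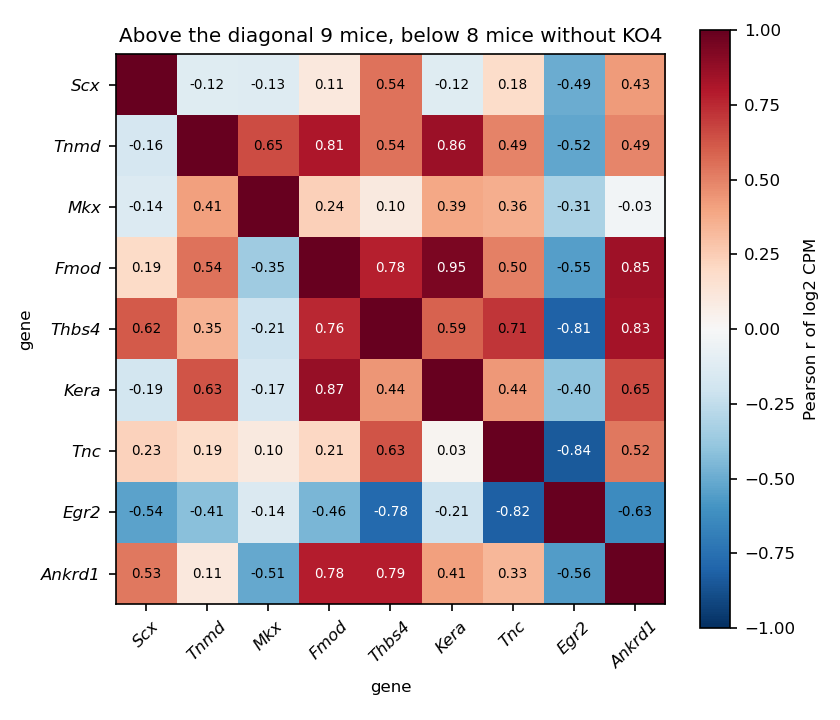
Pearson r of log2 CPM between the 9 genes (colour and printed value), over 9 mice above the diagonal and over the 8 mice without KO4 below it. Fmod and Kera keep a high r without KO4 (0.95 and 0.87), the row of Egr2 is below 0 on both sides, and the r of Mkx with Fmod and Kera falls below 0 without KO4 (-0.35 and -0.17).

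The levels of 12 marker lists were set beside the 9 genes, which gave 108 relations, each a Pearson r between log2 CPM of the member and the mean standardised log2 CPM of the list without members. An exact permutation p below 0.05 was reached by 19 and an adjusted p below 0.05 by 0, the lowest adjusted p being 0.122. Egr2 and the Schwann cell list (14 of 14 genes tested) had r = 0.85 (exact permutation p = 0.00454, adjusted p = 0.122) and rho = 0.57. The r was 0.68 without KO5 and 0.42 without KO2 and KO5. The Schwann cell sum was 847 CPM in KO5 and 422 to 579 CPM in the other mice. Egr2 also moved with the adipocyte list, with r = 0.77 and rho = 0.77, but r was 0.24 without KO5, and it ran opposite to the heart list, with r = -0.74 and -0.36 without KO5. Kera and the cartilage list (11 genes) had r = 0.78, which was 0.07 without KO4. The cartilage sum, made up largely of Col11a2 and Col2a1, was 465 CPM in KO4 and 114 to 196 CPM in the other mice, and all 11 cartilage genes tested were highest in KO4. Tnmd and Fmod had r = 0.79 and 0.76 with cartilage, and 0.32 and 0.29 without KO4. For these 3 genes the relation was carried by KO4. Tnc had r = 0.71 with cartilage and 0.90 without KO4, Thbs4 0.57 and 0.65, and Egr2 -0.58 and -0.86, so that these held without that mouse, though none passed the adjustment over the 108 relations. Mkx had 0.65 and 0.32, Ankrd1 0.63 and 0.44, and Scx 0.06 and 0.29. Tnmd also moved with the endothelium list, with r = 0.80 and rho = 0.53, but r was 0.55 without KO4 and -0.09 without KO2 and KO4. The part of cartilage and endothelial cells in the members' levels was not tested.

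Ankrd1 moved with the heart list (7 genes tested, some of which immature skeletal muscle also expresses) with r = 0.87 (exact permutation p = 0.00219, adjusted p = 0.122) and rho = 0.88, and r was 0.83 without KO4 and KO5. With the 16 immediate early genes, which report recent stimulation or handling of a tissue, Ankrd1 had r = 0.86 (exact permutation p = 0.00348, adjusted p = 0.122) and Fmod had r = 0.85 (exact permutation p = 0.00328, adjusted p = 0.122). Without KO4 these were 0.77 and 0.70. Mkx and the skeletal muscle list ran opposite, with r = -0.74 (exact permutation p = 0.0222, adjusted p = 0.238).

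**Figure D5:**
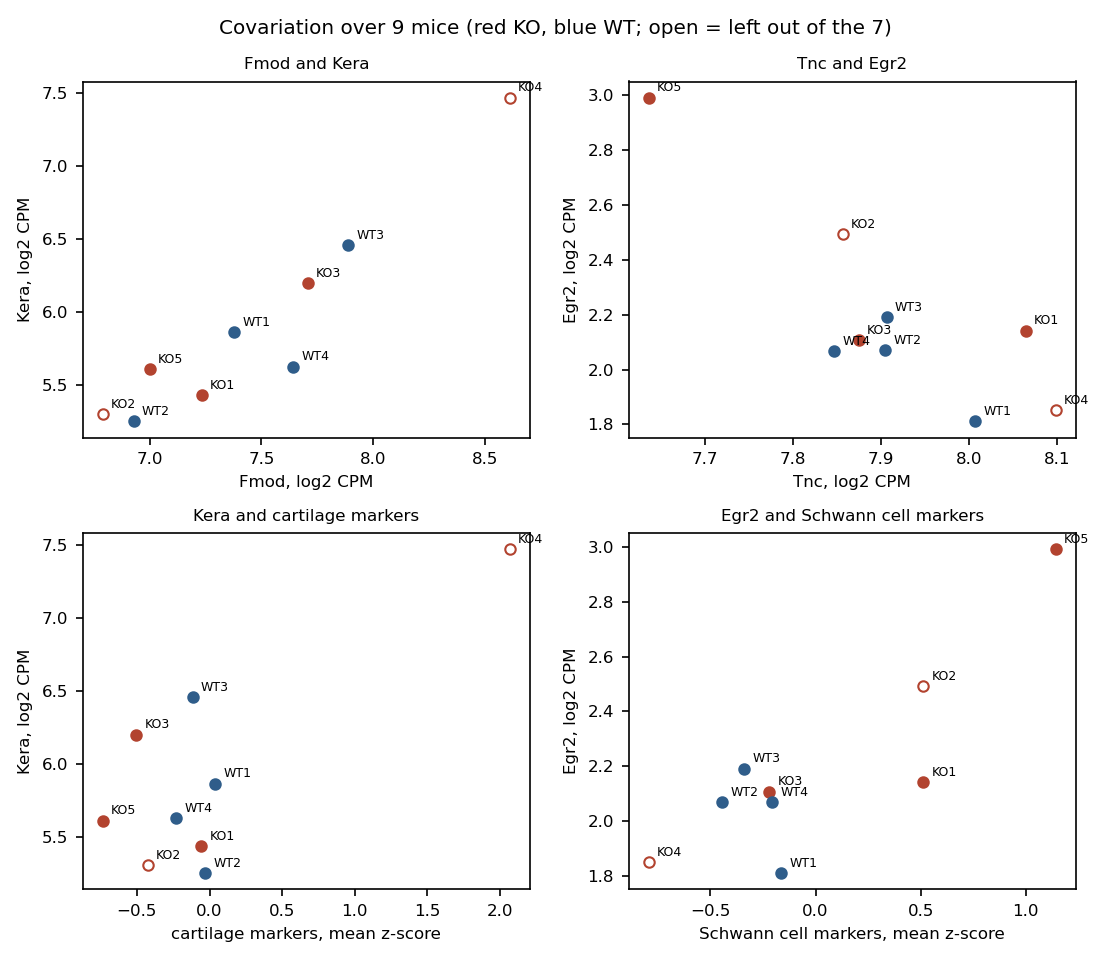
Log2 CPM of Kera against Fmod, of Egr2 against Tnc, of Kera against the mean standardised level of cartilage markers, and of Egr2 against that of Schwann cell markers, 1 point per mouse (red KO, blue WT, open for KO2 and KO4). The Fmod and Kera points lie along a line with KO4 at its end (r = 0.95), and the cartilage panel has KO4 far to the right of the other 8 mice.

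Other genes of tendon and junction were read in the same fits. Of 23 tested tendon transcription factors and signals, 0 had an unadjusted edgeR p below 0.05 in 7 mice, and the median log2 fold change was -0.05. The most abundant of them were the receptors Fgfr1, at 147 ± 16.8 CPM in KO (SD, n = 3) and 138 ± 11.1 CPM in WT (SD, n = 4), and Tgfbr2, at 128 ± 14.6 and 131 ± 17.6 CPM. Of 40 tendon matrix and tenocyte genes, 1 had such a p, a share close to the 2.08% of all genes: Chodl, a C-type lectin of tendon and muscle, was at 58.3 ± 12.2 CPM in KO (SD, n = 3) and 72.8 ± 6.47 CPM in WT (SD, n = 4), with a log2 fold change of -0.33 (SE 0.14, edgeR p = 0.0443, FDR 1.00, exact permutation p = 0.0857). In 9 mice it was -0.24 (SE 0.12, exact permutation p = 0.103). The median of the 40 was -0.04 in 7 mice and 0.06 in 9. Of 14 small leucine-rich proteoglycans 0 had such a p, and the most abundant, Dcn and Bgn, had log2 fold changes of 0.21 (SE 0.13) and 0.01 (SE 0.13).

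Among 27 myotendinous junction genes, 1 had an unadjusted edgeR p below 0.05, as had 2.08% of all genes: Col22a1, the collagen of the junction's basement membrane, was at 67.4, 67.0 and 43.7 CPM in KO1, KO3 and KO5 and at 66.8, 86.4, 79.2 and 79.8 CPM in WT1 to WT4. Its log2 fold change was -0.40 (SE 0.16, edgeR p = 0.0276, FDR 1.00, exact permutation p = 0.114) in 7 mice and -0.17 (SE 0.17, exact permutation p = 0.452) in 9, where KO2 and KO4 had 80.0 and 89.7 CPM. The median of the 27 was -0.08 in 7 mice and -0.06 in 9. The relatives of the members (lists that include the members) gave no such p in 7 mice: 0 of 5 thrombospondins, 0 of 3 tested tenascins, 0 of 3 tested Egr genes, 0 of 3 muscle ankyrin repeat genes and 0 of 12 Yap and Taz targets. The immediate early genes, a list without members, gave 0 of 16. Thbs2 (263 ± 60.6 CPM in KO and 266 ± 40.8 in WT), Tnxb (385 ± 19.6 and 360.1 ± 25.2), Egr1 (45.7 ± 5.86 and 47.0 ± 6.77) and Ankrd23 (16.4 ± 2.02 and 16.6 ± 7.92) had means that differed by less than 1 SD of either genotype, except for Tnxb in KO (SD, n = 3 and 4).

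Among the genes of Schwann cells, the cells in which Egr2 drives myelination, 7 of 14 had an unadjusted edgeR p below 0.05 in 7 mice, against 2.08% of all genes. These 7 were all higher in KO, none was called, and the median log2 fold change of the 14 was 0.38. KO5 was the highest mouse for 8 of the 14, against 13.9% of the genes tested. Ncmap, a compact myelin protein, differed by 1.90 (SE 0.53, edgeR p = 0.00438, exact permutation p = 0.0571) and Fa2h, which makes hydroxylated myelin lipids, by 1.25 (SE 0.36, exact permutation p = 0.0571). In 9 mice 3 of 14 had such a p and the median was 0.28. Of 6 adipocyte genes 5 had such a p in 7 mice, all higher in KO and highest in KO5, with Pparg, Cfd and Fabp4 first. The summed adipocyte markers were at 1186 CPM in KO5 and at 205 to 418 CPM in the other mice. Such a p was also found for 3 of 16 fibroblast genes (Ly6a, Twist2 and Dpt), all higher in KO, beside 2.08% of all genes. On the lower side it was reached by 1 of 11 bone genes (Phex) and 1 of 7 heart genes (Myh6), and by 0 of the tested cartilage, epidermis, endothelium, leukocyte, erythrocyte and skeletal muscle genes in either direction. The summed bone markers were at 14.4 CPM in KO5 and 15.003 CPM in KO3 and at 125 to 298 CPM in the other mice.

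By Pearson r over the 9 mice, among 13796 protein-coding genes of at least 1 CPM, the genes most like each member were as follows, given as a description in which the highest of many values were picked. Scx was most like Panx1 (r = 0.94), Hnrnpa1 (0.93) and Slc29a4 (0.91), all highest in WT4 and lowest in KO5 as Scx was. Tnmd was most like Capn2 (0.93), Ugdh (0.93) and Zfp365 (0.93), and Mkx like Mypop (0.88), Ptgs1 (0.87) and Osr2 (0.87). Fmod was most like Acsl5 (0.97), Pcolce2 (0.96) and Naaladl1 (0.96). Kera was most like Pcolce2 (0.99), which encodes an enhancer of the proteinase that matures procollagen and ran from 4.07 CPM in KO2 to 10.1 CPM in KO4, and like Abi3bp (0.98) and Fcrls (0.97). The r of Kera with Pcolce2 was 0.99 also without KO4. Thbs4 was most like Slfn2 (0.97), Alox12 (0.96) and Ptgis (0.95), Tnc like Alkal2 (0.96), Fam180a (0.95) and Zfp429 (0.95), and Egr2 like Adam23 (0.96), Cdyl (0.95) and Cdk6 (0.93), all 3 highest in KO5. Ankrd1 was most like Pqlc1 (0.96), Higd1b (0.95) and the immediate early gene Fosb (0.95). The mean standardised level of Scx, Tnmd, Mkx, Fmod and Kera was most like 1500015O10Rik (0.94), Cpm (0.93) and Lama3 (0.93), which were at 0.80, 0.80 and 0.81 without KO4.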

How the data were processed

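Per the labels and the study's methods, reads were mapped to mm10 (GRCm38) with HISAT2, concordant reads were kept and counted with featureCounts of Subread, and the authors deposited raw counts per Ensembl gene for 9 mice, without normalization. No source used here states the annotation release or strandedness, and counts of overlapping genes are uncertain. The 9 members and the 21 other gene lists were chosen with earlier results of these data known. Symbols and positions came from GENCODE M21 (55230 of 55471 identifiers matched). CPM were scaled by TMM in edgeR 4.0.16, log2 CPM used a prior count of 2, and KO was compared with WT by edgeR's quasi-likelihood test (filterByExpr, minimum count 10; Benjamini-Hochberg over all genes), which was tested on simulated data. p-values measure the spread between these mice. Named genes were the members, the 3 genes most like each, and of each list up to 3 genes per direction with p below 0.05 in 7 mice or otherwise the 2 most abundant, except for items that are not reported here. Alternatives were DESeq2 1.42.0, limma-voom 3.58.1, DESeq2 size factors, no filter, Xist as a covariate, the replicate number as a block and each mouse left out. Intervals used the SE and the residual degrees of freedom. No 2 mice of a genotype differed by as little as sampling noise.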

Additional observations from a re-analysis of the deposited data

Results flagged for a closer look

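Among 60 sets of 4 or 5 mice (the 9 genes and 21 summed lists, in each genotype), 4 held a mouse whose gap to its nearest neighbour was over Dixon's 95% critical value, and chance gives such a gap in about 1 in 20 sets. Kera stood at 177 CPM in KO4, and the summed cartilage markers at 465 CPM in the same mouse. The summed adipocyte markers stood at 1186 CPM in KO5, and the summed erythrocyte markers at 5779.9 CPM in KO1. Egr2 in KO5 (7.89 CPM) was the highest of its set but did not pass this limit.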

How the results depend on the processing

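No alternative gave a called member in 7 or 9 mice, and the number with an unadjusted p below 0.05 was 0 except as follows. Leaving out 1 mouse gave 0 to 1 in 7 mice (Egr2 without KO1 or KO3, Mkx without KO5 or WT4) and 0 in 9 mice. The replicate numbers were not treated as pairing: deviations of same-numbered mice correlated at 0.0524 to 0.373, and KO1, KO3 and KO4 correlated best with the WT mouse of their own number, as a hint from the data only, but KO2 with WT1. Among the 7 mice the replicate block compares only KO1 with WT1 and KO3 with WT3, since KO5, WT2 and WT4 share their number with no mouse of the other genotype. With the block 2 members had such a p (Mkx at -0.58, edgeR adjusted p = 0.940, and Kera at -0.35, 0.998). Over all genes 844 had one with the block, 9 of them called, against 453 without the block in all 7 mice. Under the block Scx turned to 0.031, Tnc to 0.0084 and Ankrd1 to 0.13 on the log2 scale, and Egr2 was 0.12, Tnmd -0.22 and Thbs4 -0.070. With 9 mice Fmod turned to 0.13 and Kera to 0.39. The block fit with KO2 and KO4 added left out KO5, which has no WT mouse of its number. In that fit of KO1 to KO4 and WT1 to WT4 Fmod was 0.12, Kera 0.28 and Tnc 0.058. Leaving out 1 mouse, the log2 fold change ran from -0.35 to 0.18 for Kera and from -0.16 to 0.044 for Tnc in 7 mice, and with an unchanged sign from -0.35 to -0.088 for Scx, -0.13 to -0.016 for Tnmd, -0.48 to -0.21 for Mkx, -0.39 to -0.00068 for Fmod, -0.33 to -0.024 for Thbs4, 0.073 to 0.58 for Egr2 and -0.55 to -0.10 for Ankrd1. In 9 mice it ran from -0.16 to 0.076 for Tnmd, from -0.28 to 0.014 for Mkx, from -0.28 to 0.28 for Fmod, from -0.19 to 0.66 for Kera, from -0.055 to 0.060 for Tnc from -0.49 to 0.13 for Ankrd1, and with an unchanged sign from -0.28 to -0.012 for Scx, -0.24 to -0.0085 for Thbs4 and 0.13 to 0.44 for Egr2. Pairs with an adjusted p below 0.05 numbered 6, but 14 with Xist as a covariate, 0 in 7 mice, 1 with total counts, and 0 to 8 when 1 mouse was left out (0 without KO4 and 0 without WT3). The causes were not tested. Every member had at least 112 counts in each mouse, and how far depth or the number of mice limits detection was not compared. The 9-mouse alternatives other than the block were chosen after the data were seen.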
